A study of Mus musculus with 10 samples.

Results

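The genes described here are 31 genes of the integrated stress response that are driven by, or include, the transcription factor ATF4. They were taken by name, by a rule that uses no measured value, from 32903 genes with counts, though the list was drawn up with earlier results of these data known. They comprise 5 transcription factors, 8 feedback and stress effectors, 5 enzymes of serine and one-carbon metabolism, 4 other amino acid enzymes, 7 amino acid transporters and 2 secreted hormones. Of the 31, 30 were tested. Pycr1 was not matched in the RefSeq gene table and is given separately.

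RNA was sequenced from preadipocytes, the precursors of fat cells, of inguinal subcutaneous fat from male wild-type C57BL/6 mice. The control group is 5 libraries of cells given DMSO alone, as vehicle. The treated group is 5 libraries of cells given BPS (bisphenol S, a replacement for bisphenol A) at 2.5 µM. Exposure time, animal age and whether replicates were separate animals or dishes are not given in the sources used here, so p-values measure the spread between these libraries, which may be technical. The series title places the work among studies of bisphenols, reactive oxygen species and fat cell formation.

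In the integrated stress response, kinases that sense unfolded proteins, amino acid shortage, viral RNA or lack of heme phosphorylate the initiation factor eIF2. General protein synthesis then slows while the Atf4 mRNA, which carries upstream reading frames, is translated more. ATF4 protein raises genes that import and make amino acids, and with its partner CHOP it raises feedback and cell death genes. Much of the control of ATF4 is therefore at translation, which RNA counts do not measure.

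ATF4 binds DNA with C/EBP proteins at a composite element whose core is TGATGNAA. Promoter windows of 300 bases, 250 before and 50 after a transcription start, were available from RefSeq (GRCm38.p6) for 27 members in 34 windows. The core was present on either strand in 9 of these 27 members (33.3%), against 4.51% of 27025 genes and 3.97% of all 32851 windows. The longer core TGATGNAAT was found in 3 members, Fgf21, Nupr1 and Pycr1, and in 0.965% of all windows. The sites below are shown because they place the ATF4 core in both a member that changed and members that did not. Capitals mark the core, which reads TTNCATCA where it lies on the opposite strand, and all sequences are given 5′ to 3′ on the gene's strand.

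Chac1: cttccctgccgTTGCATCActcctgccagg

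Asns: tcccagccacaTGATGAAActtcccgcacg

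Trib3: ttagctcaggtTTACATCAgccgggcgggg

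Atf3: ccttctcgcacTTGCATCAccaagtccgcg

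Nupr1: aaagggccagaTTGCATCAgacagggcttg

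Slc1a4: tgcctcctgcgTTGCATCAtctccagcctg

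The Chac1 site lies at chr2:119351038-119351067 on the plus strand, with the core at bases -193 to -186 from the start. The other sites lie on the minus strand. They are chr6:7693214-7693243 for Asns (core at -23 to -16), chr2:152344028-152344057 for Trib3 (15 to 22 after the start), chr1:191183425-191183454 for Atf3 (-110 to -103), chr7:126625562-126625591 for Nupr1 (-110 to -103) and chr11:20332699-20332728 for Slc1a4 (-4 to 4). Fgf21, Pycr1 and Vldlr also held the core. Of 5 members that changed under BPS and had a window, 1 held the core, Chac1. A match of letters is a description of the window and not a measured binding site.

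Of the 30 tested members, 7 changed under BPS, 6 higher and 1 lower (adjusted p under 0.05, edgeR). All changes were small. Chac1, Cth, Slc7a5, Mthfd2, Phgdh and Psat1 rose by 5.73% to 20.2% of their DMSO mean, and Ddit4 fell by 16.3%. Atf4 itself and the other transcription factors did not pass the test. The members that rose make cysteine, serine and folate units, import large amino acids or degrade glutathione, and the member that fell restrains the growth kinase complex mTORC1.

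Over all 14597 genes tested, 712 changed (4.88%), 447 of them higher (3.06%) and 265 lower (1.82%), a share of higher genes of 62.8%, or 45.9% of 728 calls when libraries were scaled by size alone. The members' share of calls was 23.3%. The members' log2 fold changes of BPS over DMSO, here log2 changes, ran from -0.26 (Ddit4) to 0.265 (Chac1), with a median of 0.079 beside 0 for all genes, and 28 of 30 were above 0 (93.3%) beside 50.2% of all genes. Between 26 and 28 stayed above 0 under the gene-level alternatives that tested 30. At an unadjusted p under 0.05 were 18 members (60%) and 18.8% of all genes. Groups did not overlap in 4 members that were higher, Chac1, Phgdh, Mthfd2 and Cth, and in 1 that was lower, Ddit4, beside 4.19% and 2.71% of all genes.

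**Figure D1:**
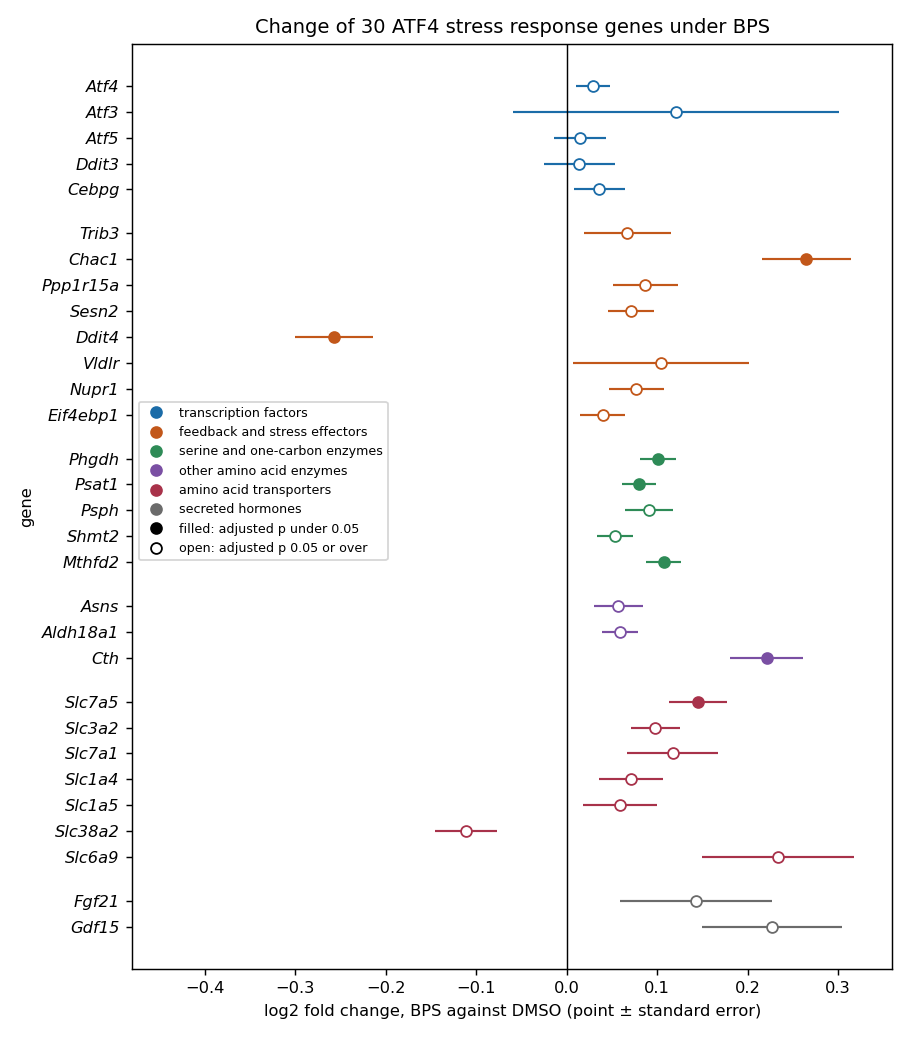
Log2 fold change of BPS against DMSO (horizontal axis) for the 30 tested members, ordered by role. Points are estimates, bars are 1 standard error, and filled points passed an adjusted p of 0.05. Most points lie between 0 and 0.15, Chac1 (0.265) and Ddit4 (-0.26) lie farthest out, and all 5 transcription factors are open.

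Library totals lay between 37920689 and 42717227 estimated counts. Among markers of the labelled cells, Pdgfra, Dlk1, Ly6a and Col1a1 were present in every library, while the 4 markers of mature fat cells had at most 5 counts per library. The 3 tested macrophage markers had edgeR adjusted p of 0.571 or more, with Csf1r at 0 in every library, and the 5 endothelial markers 0.465 or more. Levels are given as CPM, counts per 1000000 counts of the tested genes, with library sizes scaled by TMM. Macrophage markers summed to 9.1 to 14.7 CPM in DMSO and 9.98 to 17.3 CPM in BPS, and endothelial markers to 17.3 to 22.7 and 16.7 to 22.5 CPM. Among 5 mural markers only Cspg4 passed, and it rose (log2 change 0.16, edgeR adjusted p = 0.0467); the list's summed level was 57.5 to 62.5 CPM in DMSO and 63.5 to 71.4 CPM in BPS. Among 5 mesothelial markers, Msln and Upk3b were at 0 in every library and Krt19 rose (log2 change 0.27, edgeR adjusted p = 0.0367), while Wt1, at 14 to 41 counts per library, had an estimate of -0.59 (edgeR adjusted p = 0.155); the sums were 9.06 to 11 and 11 to 12.9 CPM. Of the 8 preadipocyte markers, 1 passed, Cd34, which rose (log2 change 0.28, edgeR adjusted p = 0.000428). Zfp423, Pi16 and Dpp4 stood low, at DMSO means of 9.907, 2.024 and 2.452 CPM. Pdgfra, with 4 of 5 BPS libraries below the lowest DMSO library, and Dpp4, likewise, had estimates of -0.07 and -0.20 (edgeR adjusted p of 0.0777 and 0.335). Their part in the results on the members was not tested, and in bulk RNA a change in the number of cells of a type and in RNA per cell cannot be told apart. Library codes in the labels place all DMSO libraries before all BPS libraries, so a batch along that order and the treatment cannot be told apart.

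Among the transcription factors, Atf4 stood at 350.5, 358.2, 372.3, 361.3 and 348.6 CPM in DMSO replicates 1 to 5. In BPS replicates 1 to 5 it stood at 359.1, 365.0, 370.5, 362.3 and 370.8 CPM. All 5 BPS libraries lay inside the DMSO range and above the DMSO mean. The log2 change was 0.03 (SE 0.02; edgeR adjusted p = 0.475), with estimates between 0.014 and 0.043 under the alternatives tried at gene level.

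Ddit3 encodes CHOP, the factor that links prolonged stress to cell death. Its levels were 64.2, 68.5, 68.8, 72.4 and 63.4 CPM in DMSO and 64.05, 67.7, 71.0, 68.0 and 69.99 CPM in BPS. The groups overlapped fully, with a log2 change of 0.01 (SE 0.04; edgeR adjusted p = 0.897). This estimate went below 0 when libraries were scaled by size alone (-0.001).

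Atf5, a relative of ATF4 that is also under translational control, averaged 826.5 ± 34.2 CPM under vehicle and 835.2 ± 25.5 CPM under BPS (± SD over 5 libraries; edgeR adjusted p = 0.845). Cebpg, the C/EBP family partner of ATF4, averaged 85.35 ± 2.77 and 87.55 ± 2.82 CPM (edgeR adjusted p = 0.546). Atf3, a stress-induced repressor, held 28 to 46 counts per library, and its standard error of 0.18 on the log2 scale leaves changes of the size seen in other members not detectable at this depth. Of the 5 factors, 0 passed the edgeR test, beside 4.88% of all genes, and 0 had an unadjusted p under 0.05, beside 18.8%. In the DESeq2 Wald test or limma-voom 0 passed.

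**Figure D2:**
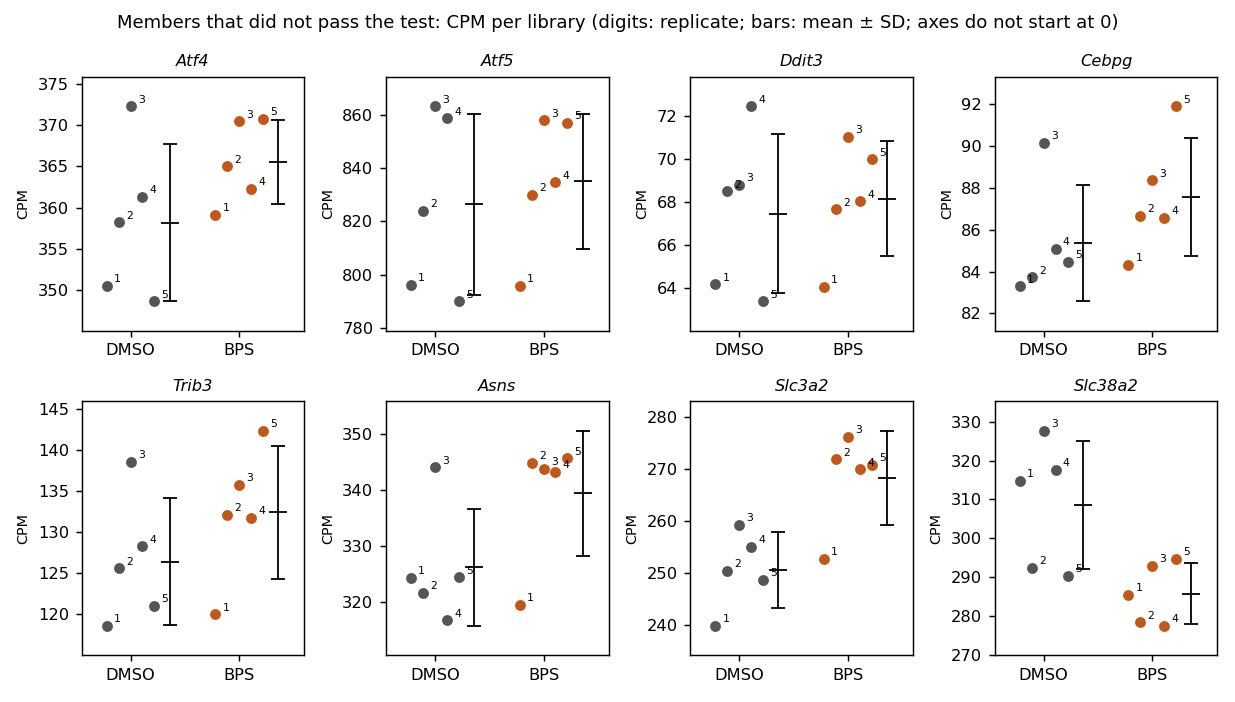
CPM per library (vertical axes, not starting at 0) of 8 members that did not pass the test, with DMSO in grey and BPS in orange. Digits give the replicate and bars the mean ± SD of 5 libraries. BPS replicate 1 is the lowest BPS library in every panel except that of Slc38a2, and DMSO replicate 3 is the highest DMSO library in all panels except Ddit3.

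Among the 8 feedback and stress effectors, Chac1 rose and Ddit4 fell (25%, beside 4.88% of all genes). Chac1 encodes an enzyme that degrades glutathione inside the cell. It stood at 13.7, 14.3, 15.4, 14.7 and 13.99 CPM in DMSO and at 17.4, 19.0, 17.2, 16.8 and 16.2 CPM in BPS. Every BPS library lay above every DMSO library. Mean levels were 14.4 ± 0.666 CPM and 17.3 ± 1.07 CPM (SD, n = 5 each), with a log2 change of 0.265 (SE 0.05; edgeR adjusted p = 0.0111). The rise passed in each of the 19 gene-level alternatives, with adjusted p of 0.000475 to 0.0395. It rests on 501 to 693 counts per library.

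Ddit4 encodes REDD1, which restrains mTORC1 and which hypoxia and glucocorticoids also raise. It stood at 167.4, 171.9, 180.2, 173.7 and 172.0 CPM in DMSO and at 134.1, 160.5, 148.3, 136.4 and 145.2 CPM in BPS. Every BPS library lay below every DMSO library, with BPS replicate 2 nearest to the vehicle. The mean went from 173.0 ± 4.65 to 144.9 ± 10.5 CPM, a log2 change of -0.26 (SE 0.04; edgeR adjusted p = 0.00607). It passed in all 19 gene-level alternatives (adjusted p from 1.38e-06 to 0.0184).

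Sesn2 also restrains mTORC1, as a sensor of leucine. Unlike for Ddit4, its estimate was above 0. Its levels ran from 79.4 to 85.1 CPM in DMSO and from 82.9 to 88.9 CPM in BPS, where 4 of 5 libraries lay above the highest DMSO library (log2 change 0.07, edgeR adjusted p = 0.134). Eif4ebp1, a translation repressor that mTORC1 inactivates, had a log2 change of 0.04 (edgeR adjusted p = 0.428).

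Trib3, a pseudokinase that damps ATF4 output, stood at 118.6, 125.6, 138.6, 128.3 and 121.0 CPM in DMSO. In BPS it stood at 120.0, 132.1, 135.8, 131.8 and 142.4 CPM. The values overlapped (log2 change 0.07, SE 0.05; edgeR adjusted p = 0.517). Ppp1r15a, which encodes GADD34 and brings a phosphatase to eIF2, averaged 40.6 ± 1.38 and 43.1 ± 2.09 CPM (log2 change 0.09, edgeR adjusted p = 0.219). Nupr1, a stress-induced chromatin protein, and Vldlr, a lipoprotein receptor, had log2 changes of 0.08 and 0.10, with adjusted p of 0.177 and 0.635 by edgeR. Of the 8 effectors, 5 had an unadjusted p under 0.05 (62.5%, beside 18.8% of all genes).

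Of 5 serine and one-carbon enzymes, 3 rose (Phgdh, Psat1 and Mthfd2) and 0 fell, a share of 60% beside 4.88% of all genes. All 5 had an unadjusted p under 0.05, beside 18.8% of all genes. Phgdh makes the entry step from glycolysis into serine synthesis. It stood at 242.8, 246.3, 251.7, 244.5 and 253.1 CPM in DMSO and at 262.4, 276.7, 264.6, 266.5 and 257.8 CPM in BPS. The groups did not overlap. Its log2 change was 0.10 (SE 0.02; edgeR adjusted p = 0.017), and the call held in 18 of 19 gene-level alternatives.

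Psat1, the second enzyme of that route, stood at 483.9, 493.9, 506.4, 486.4 and 507.9 CPM in DMSO. In BPS it stood at 507.2, 531.6, 522.3, 527.0 and 532.3 CPM. The lowest BPS library, replicate 1, lay just under the highest DMSO library, replicate 5, and the other 4 lay above it. The log2 change was 0.08 (SE 0.02; edgeR adjusted p = 0.0353). The call was lost when single libraries were left out. The adjusted p was 0.0809, 0.082 and 0.0864 without DMSO replicates 1, 2 and 4, and 0.0815, 0.07, 0.0807 and 0.0728 without BPS replicates 2, 3, 4 and 5. Psat1 also lost its call with libraries scaled by size alone (edgeR adjusted p = 0.0584), without a filter on low counts (0.0595) and with exact accession versions (0.0632). With replicate number as a block, its edgeR adjusted p was 0.0505.

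Psph, which completes serine synthesis, ran from 47.4 to 49.9 CPM in DMSO and from 48.6 to 53.0 CPM in BPS (log2 change 0.09, SE 0.03; edgeR adjusted p = 0.0817). It passed without BPS replicate 1 (edgeR adjusted p = 0.0173). With exact accession versions its estimate was 0.02 (adjusted p = 0.901). Shmt2, which passes a carbon unit from serine to folate in mitochondria, had a log2 change of 0.05 (edgeR adjusted p = 0.16).

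Mthfd2, the mitochondrial enzyme that oxidises the folate-bound carbon, stood at 144.3, 148.0, 150.5, 150.9 and 146.8 CPM in DMSO. In BPS it stood at 158.6, 163.8, 160.4, 159.9 and 155.1 CPM. Every BPS library lay above every DMSO library. Its log2 change was 0.11 (SE 0.02; edgeR adjusted p = 0.00854), and it passed in all 19 gene-level alternatives. Outside the members, 0 of a list of 12 other folate and glycine enzymes passed by edgeR, DESeq2 or limma-voom. The share of all genes that passed by edgeR was 4.88%. Their log2 changes ran from -0.32 (Gldc, at 8 to 27 counts per library) to 0.59 (Aldh1l1, SE 0.316; edgeR adjusted p = 0.353). The median of the 12 was 0.01, and 0 had an unadjusted p under 0.05 by edgeR, beside 18.8% of all genes. The gene with the smallest p in that list was Gcsh of the glycine cleavage system (log2 change 0.06, edgeR adjusted p = 0.34).

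**Figure D3:**
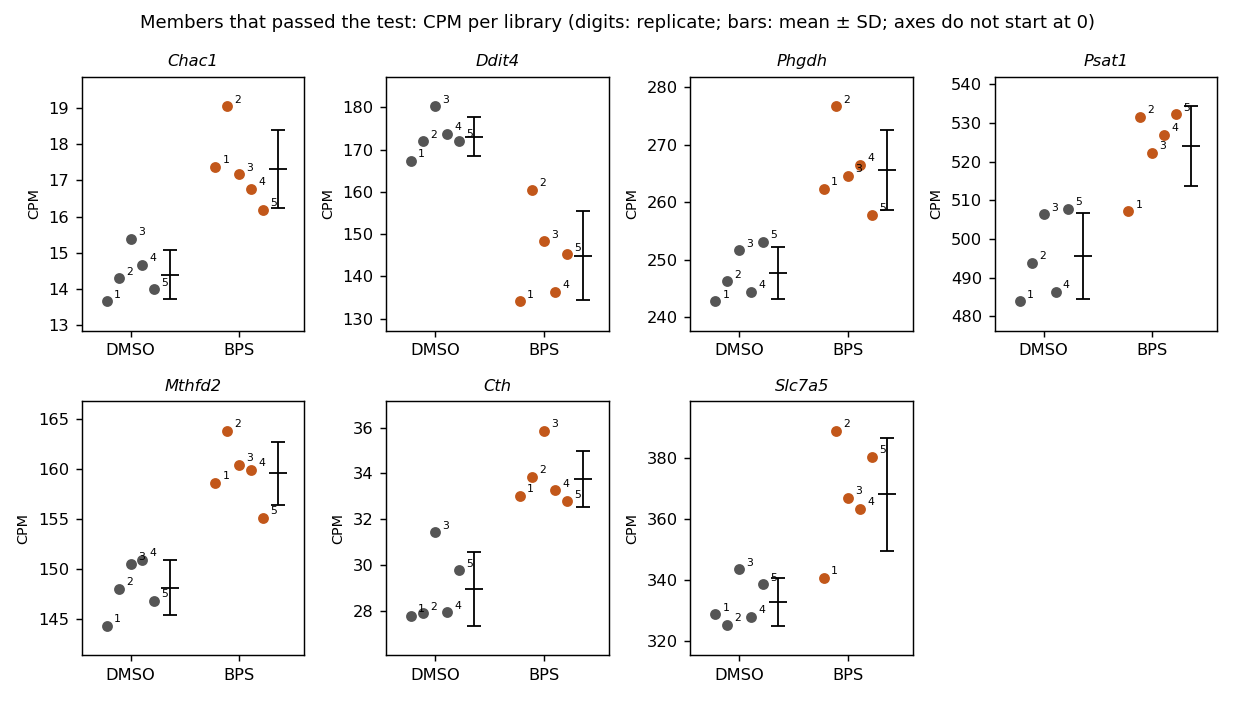
CPM per library (vertical axes, not starting at 0) of the 7 members that passed the test, with DMSO in grey and BPS in orange. Digits give the replicate and bars the mean ± SD of 5 libraries. The groups are apart in Chac1, Ddit4, Phgdh, Mthfd2 and Cth, and BPS replicate 1 lies within the DMSO range in Psat1 and Slc7a5.

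Of the other amino acid enzymes, 1 of 3 tested rose and 0 fell (33.3%, beside 4.88% of all genes). Cth, which releases cysteine from cystathionine, stood at 27.8, 27.9, 31.4, 27.9 and 29.8 CPM in DMSO and at 33.0, 33.8, 35.9, 33.3 and 32.8 CPM in BPS. The groups did not overlap. The mean went from 28.96 ± 1.61 to 33.75 ± 1.24 CPM, a log2 change of 0.22 (SE 0.04; edgeR adjusted p = 0.0101), and the call held in all 19 gene-level alternatives.

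Asns, the asparagine synthetase that is a classic ATF4 target, stood at 324.3, 321.6, 344.1, 316.7 and 324.4 CPM in DMSO. In BPS it stood at 319.5, 344.9, 343.8, 343.3 and 345.7 CPM. BPS replicates 2 to 5 lay close to the highest DMSO library, replicate 3, and BPS replicate 1 lay among the low DMSO values. The log2 change was 0.06 (SE 0.03; edgeR adjusted p = 0.282, and 0.0723 to 0.459 under the alternatives). Aldh18a1, which starts proline synthesis from glutamate, ran from 244.2 to 253.3 CPM in DMSO and from 248.2 to 265.9 CPM in BPS (log2 change 0.06, edgeR adjusted p = 0.132). It passed only without BPS replicate 1 (edgeR adjusted p = 0.0391).

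Pycr1, which completes proline synthesis, was counted under an accession that only the GENCODE M21 tables pair with its name, a step chosen after the data were seen. Its levels ran from 4.79 to 5.93 CPM in DMSO and from 4.79 to 5.54 CPM in BPS, on 173 to 234 counts. Its log2 change was -0.08 (SE 0.07; edgeR adjusted p = 0.638).

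Among the 7 transporters, Slc7a5 rose and 0 fell (14.3%, beside 4.88% of all genes). At an unadjusted p under 0.05 by edgeR were 5 (71.4%), beside 18.8% of all genes, and of these Slc38a2 was below 0. Slc7a5 encodes LAT1, which imports leucine and other large neutral amino acids. Its levels were 328.8, 325.3, 343.5, 328.0 and 338.6 CPM in DMSO and 340.7, 388.9, 366.9, 363.4 and 380.4 CPM in BPS. Of the BPS libraries, 4 lay above all DMSO libraries and replicate 1 lay within their range. The log2 change was 0.145 (SE 0.03; edgeR adjusted p = 0.0233). The adjusted p was 0.0573, 0.0629 and 0.0604 without DMSO replicates 1, 2 and 4, and 0.0508, 0.0521 and 0.0531 without BPS replicates 2, 3 and 5. With exact accession versions it was 0.0517.

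Slc3a2 encodes the heavy chain that carries LAT1 to the cell surface. It stood at 239.8, 250.4, 259.3, 255.0 and 248.6 CPM in DMSO and at 252.7, 271.9, 276.3, 270.0 and 270.9 CPM in BPS. The pattern over libraries was that of Slc7a5, with BPS replicate 1 alone within the DMSO range. Its log2 change of 0.10 (SE 0.03) fell short of the threshold (edgeR adjusted p = 0.0583). It passed without BPS replicate 1 (0.0111), with replicate number as a block (0.0255) and in the DESeq2 Wald test (0.0154).

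Slc38a2, the neutral amino acid transporter SNAT2, had an estimate below 0. Its levels were 314.8, 292.4, 327.7, 317.6 and 290.3 CPM in DMSO and 285.4, 278.4, 292.9, 277.5 and 294.7 CPM in BPS. The groups overlapped, and all 5 BPS libraries lay under the DMSO mean. The log2 change was -0.11 (SE 0.03; edgeR adjusted p = 0.0915, and 0.0292 by the DESeq2 Wald test).

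Slc6a9, the glycine transporter GlyT1, had the largest log2 change of the 7 transporters and the largest standard error on that scale. It averaged 50.03 ± 6.39 CPM in DMSO and 58.9 ± 5.02 CPM in BPS, with a log2 change of 0.23 (SE 0.08; edgeR adjusted p = 0.147). Slc7a1, the transporter of arginine and lysine, went from 112.3 ± 5.23 to 121.8 ± 9.2 CPM (log2 change 0.12, edgeR adjusted p = 0.232) and passed only without BPS replicate 1 (0.0397). Slc1a4 and Slc1a5, which exchange alanine, serine, cysteine and glutamine, had log2 changes of 0.07 and 0.06 (adjusted p = 0.312 and 0.494 by edgeR).

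Both secreted hormones were scarce, at 108 to 156 counts per library. Fgf21 averaged 3.51 ± 0.321 CPM in DMSO and 3.875 ± 0.293 CPM in BPS, with a log2 change of 0.14 (SE 0.08; edgeR adjusted p = 0.405). Gdf15 averaged 3.22 ± 0.23 and 3.77 ± 0.253 CPM, with a log2 change of 0.23 (SE 0.08; edgeR adjusted p = 0.127). Of its 5 BPS libraries, 4 lay above every DMSO library. Of the pair, 0 passed by edgeR, DESeq2 or limma-voom, and 1 had an unadjusted p under 0.05 (50%, beside 18.8% of all genes).

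By the median over members, BPS replicate 1 was the BPS library closest to the vehicle. It was the lowest BPS library for 19 of 30 members and the highest for 0. The median member stood at 100.4% of its DMSO mean there, and at 104.8% to 108.0% in the other 4 BPS libraries. Over all genes tested the same median was 100% to 100.1% in every BPS library, a level that scaling by TMM itself brings near 100%. Single members differed in BPS replicate 1, where Chac1 stood at 120.69%, Cth at 114.05% and Ddit4 at 77.5% of the DMSO mean. In the vehicle group DMSO replicate 3 was the highest for 19 members (median 103.3%) and DMSO replicate 1 the lowest for 14 (97.7%). Without BPS replicate 1, 11 members passed in place of 7, with Psph, Aldh18a1, Slc3a2 and Slc7a1 added, beside 5.27% of all genes. The DESeq2 Wald test passed 9 members, with Slc3a2 and Slc38a2 added, beside 7.38% of the genes for which it gave an adjusted p.

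**Figure D4:**
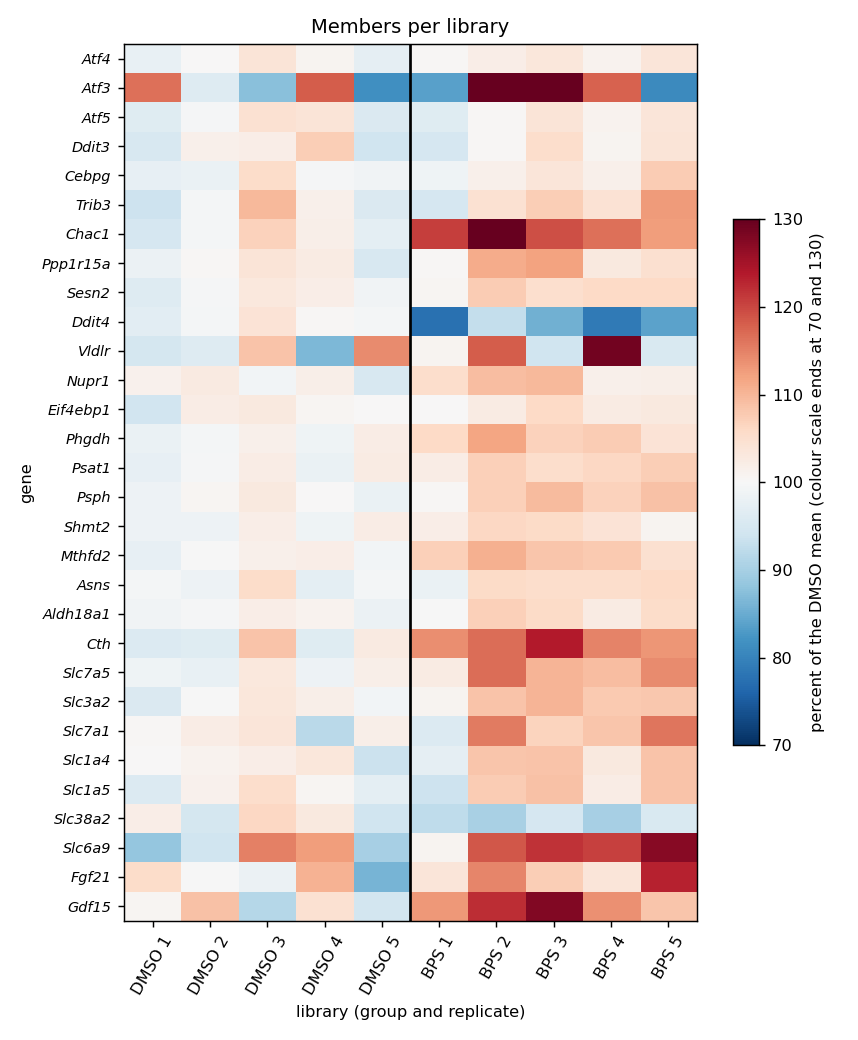
Level of each of the 30 tested members (rows) in each library (columns) as a percent of its DMSO mean, with the colour scale ending at 70 and 130. The median member stands at 100.4% in the column of BPS replicate 1 and at 104.8% to 108.0% in those of BPS replicates 2 to 5. Ddit4 and Slc38a2 lie below 100% in all 5 BPS columns.

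Other genes of the pathway were read from lists that share no gene with the members. Of 20 cytosolic aminoacyl-tRNA synthetases, which charge tRNAs and several of which ATF4 is known to raise, 5 rose and 0 fell. That is 25%, beside 4.88% of all genes, with a median log2 change of 0.04. At an unadjusted p under 0.05 by edgeR were 10 (50%), beside 18.8% of all genes. Gars, for glycine, rose, from 398.2 ± 6.05 CPM to 429.6 ± 5.24 CPM (± SD over 5 libraries), by a log2 change of 0.11 (SE 0.02; edgeR adjusted p = 0.002). Tars, for threonine (0.09, adjusted p = 0.00855), and Nars, for asparagine (0.08, adjusted p = 0.0107), also rose by edgeR. Rars and Sars, for arginine and serine, passed too. The count of 5 was 3 without DMSO replicates 1, 2 or 4 or BPS replicates 2, 3 or 5, and 8 without BPS replicate 1. It was 3 with scaling by library size alone, and 2 with exact accession versions or with replicate number as a block. Gars, Tars and Nars passed without each library in turn, and in each the groups did not overlap.

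Of 18 further ATF4 target genes, 3 rose and 0 fell (16.7%, beside 4.88% of all genes), with a median of 0.05. At an unadjusted p under 0.05 by edgeR were 6 (33.3%), beside 18.8% of all genes. With replicate number as a block, 0 passed. Got1, the cytosolic aspartate aminotransferase, and Bcat1, which transaminates branched amino acids, both had log2 changes of 0.11, with adjusted p of 0.0207 and 0.0227 by edgeR. Got1 missed the threshold without DMSO replicates 4 and 5 (0.0536 and 0.0504) and BPS replicate 2 (0.0508), and Bcat1 without DMSO replicates 2, 4 and 5 (0.0621, 0.0598 and 0.0527) and with exact accession versions (0.0621). Slc7a11, the cystine importer xCT, rose from 24.3 ± 1.05 to 27.3 ± 1.35 CPM (log2 change 0.17, SE 0.04; edgeR adjusted p = 0.0411). Leaving out any library but BPS replicate 1 ended the call, as did testing without a filter on low counts (edgeR adjusted p = 0.0525) or with exact accession versions (0.796). The adjusted p was 0.0516, 0.0513, 0.0787, 0.09 and 0.0906 without DMSO replicates 1 to 5, and 0.0952, 0.0779, 0.0928 and 0.0812 without BPS replicates 2 to 5.

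The kinases and factors upstream of ATF4 moved both ways. Of 17, 1 rose and 1 fell (11.8%, beside 4.88% of all genes), with a median of 0.002. At an unadjusted p under 0.05 by edgeR were 7 (41.2%), beside 18.8% of all genes. Eif2ak2, which encodes the kinase PKR that senses viral RNA and is itself interferon-induced, went from 80.6 ± 1.99 to 69.98 ± 6.24 CPM (log2 change -0.20, SE 0.05; edgeR adjusted p = 0.0431). Without single libraries its adjusted p was 0.0933, 0.0845, 0.0808, 0.0747 and 0.0666 (DMSO replicates 1 to 5), 0.0772, 0.0901 and 0.0946 (BPS replicates 1 to 3), and 0.015 and 0.034 (BPS replicates 4 and 5). With exact accession versions it was 0.0666, and with replicate number as a block 0.0804. Eif2s2, the beta subunit of eIF2, rose by a log2 change of 0.06 (edgeR adjusted p = 0.0438). Of the fits without 1 library, it kept its call without DMSO replicate 1 (0.043) or BPS replicate 2 (0.0375), and had an adjusted p of 0.0755 to 0.103 without DMSO replicates 2 to 5 and 0.0693 to 0.102 without BPS replicates 1, 3, 4 and 5. Its adjusted p was 0.164 with scaling by library size alone, 0.121 without a filter on low counts and 0.0684 with exact accession versions. With replicate number as a block it was 0.115. The kinases for unfolded proteins (Eif2ak3, log2 change -0.004), amino acid shortage (Eif2ak4, -0.06) and heme (Eif2ak1, -0.05) did not pass.

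The ATF6 and XBP1 arm of the unfolded protein response raises chaperones of the endoplasmic reticulum. Of 15 genes listed for it, 0 passed by edgeR, DESeq2 or limma-voom, beside 4.88% of all genes by edgeR. At an unadjusted p under 0.05 were 4 (26.7%), beside 18.8% of all genes. Of these, Dnajb9, Sdf2l1 and Edem1 were above 0 and Calr was below 0. The median of the 15 was 0.01. The smallest p was that of the chaperone Dnajb9 (log2 change 0.09, edgeR adjusted p = 0.0922), and Hspa5, the main chaperone of that compartment, had a log2 change of 0.05 (edgeR adjusted p = 0.436).

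**Figure D5:**
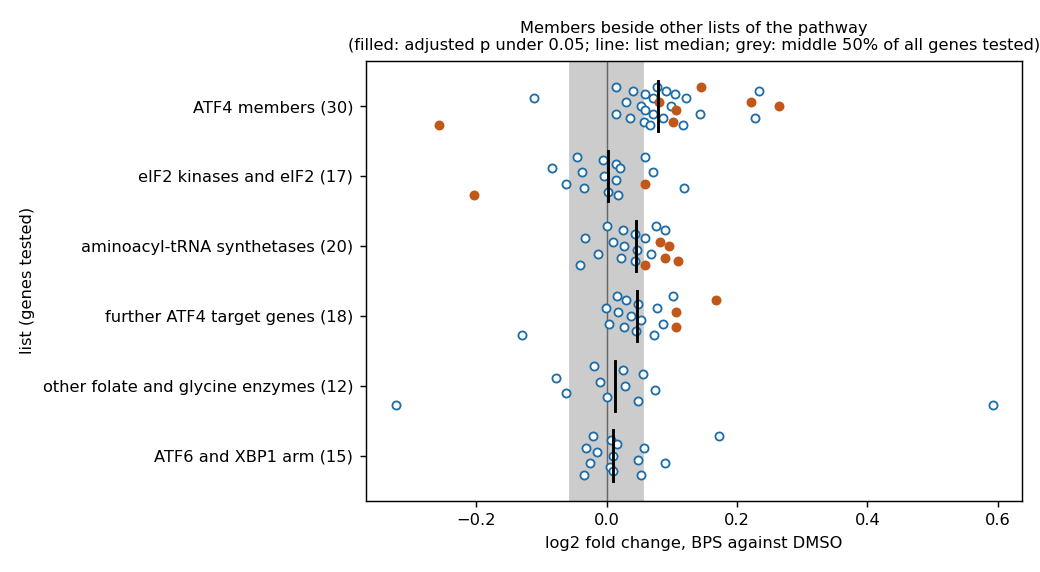
Log2 fold change of BPS against DMSO (horizontal axis) for the 30 tested members and for 5 other lists of the pathway, 1 point per gene. Filled points passed an adjusted p of 0.05, black lines are list medians and the grey band holds the middle 50% of all genes tested. The members' median (0.079) lies right of the band, and those of the other lists (0.002 to 0.047) lie inside it.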

How the data were processed

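The authors deposited estimated counts per RefSeq transcript, made with kallisto 0.42.4 per the submitters' processing notes. Index, build and strand setting are not given in the sources used here. Each of 10 columns was assigned to its library by the code in the labels. Accessions without version were matched to the RefSeq table of GRCm38.p6, which placed 86722 of 107384 transcripts (93.1% of counts), summed per gene and rounded. kallisto divides reads that fit several transcripts, so isoform values are less certain than gene sums.

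Genes were kept by filterByExpr, scaled by TMM and tested with edgeR 4.0.16 (R 4.3.3) by quasi-likelihood, BPS against DMSO without covariates, with Benjamini-Hochberg adjustment over 14597 genes and a threshold of 0.05. The standard error is the absolute log2 fold change over the square root of F. The code was tested on simulated data. Alternatives were 2 scalings, 2 filters, DESeq2 1.42.0, limma-voom (limma 3.58.1), a replicate block, exact versions, single transcripts and leaving out each library. Adding GENCODE names was chosen after seeing the data.

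All 31 members were named, with up to 3 genes of each other list that passed, those with the smallest p, or else the gene with the smallest p. A few further markers and pathway genes were named after their values were seen. Members and lists were chosen with earlier results of these data known.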

Additional observations from a re-analysis of the deposited data

Results flagged for a closer look

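Of 80 groups of 5 values, from 40 named genes in each treatment, 5 held a library that stood apart from the other 4 by Dixon's criterion at the 95% level, where chance gives 4.0. Of these, 2 lay in DMSO replicate 3, where Cebpg was high at 90.15 CPM against 83.3 to 85.1 CPM, and Asns was high at 344.1 CPM against 316.7 to 324.4 CPM. A further 2 lay in BPS replicate 1, where Asns was low at 319.5 CPM against 343.3 to 345.7 CPM, and Slc3a2 was low at 252.7 CPM against 270.0 to 276.3 CPM. Slc7a1 was low in DMSO replicate 4, at 103.2 CPM against 112.8 to 116.3 CPM.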

How the results depend on the processing

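Of 568 refits of single members at gene level, 537 kept direction and side of the threshold, 19 lost a call, 7 gained one and 5 changed sign. The changes of sign were Ddit3 with size scaling alone (-0.001), Ddit3 without DMSO replicate 1 or 5 or BPS replicate 3 (-0.007 to 0.04 over all left-out libraries) and Atf5 without DMSO replicate 5 (-0.001 to 0.032). Chac1, Ddit4, Mthfd2 and Cth passed in all 19 alternatives. The count of 7 members was 5 to 11 without single libraries (11 without BPS replicate 1) and 1 when transcripts were not summed, where the leading Gdf15 transcript had -0.114. The 10 other pathway genes became 2 with the replicate block, 3 with exact versions and 2 with transcripts. Without single libraries they were 3 to 11: 6, 4, 3 and 4 without DMSO replicates 1, 2, 4 and 5, and 5, 5 and 6 without BPS replicates 2, 3 and 5. The motif count of 9 became 3 with TGATGNAAT. The 712 changed genes became 374 with the block, 328 with exact versions, 126 with transcripts and 449 to 774 without single libraries. Exact versions and single transcripts test other features at lower depth. The cause was not tested for these shifts or for the others. Deviations of libraries with the same replicate number correlated at 0.1, 0.004, -0.067, 0.072 and -0.078, and 2 of 5 numbers fitted best with their own. The labels do not say whether the numbers pair libraries, and these correlations, small and of both signs, cannot settle it. With the block 6 members passed. Under the block Slc3a2 gained a call (edgeR adjusted p = 0.0255), while Phgdh (0.0633), Psat1 (0.0505), Nars (0.0509), Got1 (0.07), Bcat1 (0.0907), Slc7a11 (0.108), Eif2ak2 (0.0804) and Eif2s2 (0.115) lost theirs; for the 18 further ATF4 targets this left 0 calls. Counts per library were 28 to 46 for Atf3, 108 to 156 for Fgf21 and 109 to 152 for Gdf15. The part of depth in their results was not tested.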

Other observations

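The 30 members were counted over 60 transcripts, and 14 members had a single transcript. Of 54 transcripts tested singly, 1 passed, Mthfd2 NM_008638.2 (log2 change 0.12, SE 0.015, edgeR adjusted p = 0.0116), beside 0.335% of 37588 transcripts. For Atf5, 99.07% of the counts fell on NR_033136.1, which RefSeq classes as non-coding, and 0.93% on the coding NM_030693.2. For Atf4, 97.27% fell on NM_001287180.1. Its second transcript, NM_009716.3, averaged 367.7 counts and had a log2 change of 0.39 (SE 0.21, edgeR adjusted p = 0.866).

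Estimates differed between the transcripts of several members, among them Slc7a1, Psph, Aldh18a1 and Shmt2. For Slc7a1 the main transcript NM_001301424.1 (62.72% of counts) had a log2 change of 0.03 (SE 0.08) and NM_007513.4 (26.67%) one of 0.39 (SE 0.16). For Psph the main transcript NM_133900.4 (60.31%) had 0.02 (SE 0.05) and XM_006504274.3 (11.13%) had 0.35 (SE 0.16). None of these 4 transcripts passed (adjusted p of 0.648 or more by edgeR). For Aldh18a1 the main transcript (76.71% of counts) had 0.10 (SE 0.044) and the second (23.29%) had -0.07 (SE 0.152). For Shmt2 the main transcript (79.41%) had 0.086 (SE 0.021) and the second (20.59%) had -0.069 (SE 0.084). These did not pass either, and the differences between transcripts were not tested.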
